A study of Mus musculus with 4 samples.

Results

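The respiratory chain subunit genes are the genes for the protein complexes of the inner mitochondrial membrane that carry electrons to oxygen and make ATP. They were chosen by symbol from the platform annotation: names starting with Nduf, Uqcr or Atp5, the 4 succinate dehydrogenase genes Sdha to Sdhd, Cyc1, Cycs, and Cox4 to Cox8 with a suffix, without Cox7a1 and Cox8b. Of 19938 genes with a probe set of their own on the array, 89 met this rule. The rule reads symbols only, but it was written with earlier results of these data known, and it leaves out by name 2 isoform genes that were called higher. Where a gene had several probe sets, the brightest on average was used.

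Whole skin of female mouse embryos (E17.5, late gestation) was profiled with 4 Affymetrix arrays that read whole transcripts. Every array carries total RNA of 2 mice. The 2 Control arrays hold mice with the tetracycline-responsive transgene TRE-Ovol2-Flag but no driver, or wild type mice, labelled CB6F1. The 2 Ovol2 BT arrays hold mice with TRE-Ovol2-Flag and K5-tTA, labelled FVB/N, in which a keratin 5 promoter directs the transactivator, and so the transcription factor Ovol2, to the basal layer of the epidermis. The mice are described as littermates, yet the strain labels differ by group, and from these labels the effects of strain and of the transgene cannot be told apart.

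The respiratory chain begins with complex I, which takes electrons from NADH, and complex II, which takes them from succinate and is also an enzyme of the tricarboxylic acid (TCA) cycle. Both pass electrons through ubiquinone to complex III, cytochrome c carries them to complex IV, and complex V uses the resulting proton gradient to make ATP. Most subunits are encoded in the nucleus, a few in mitochondrial DNA. Brown fat, which forms between the shoulders and neck of the embryo, and muscle are rich in mitochondria, and some subunits have isoforms made mainly there.

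Promoter sequence is shown for 5 members of complexes II to V, picked because they hold motif matches, to show what such matches look like. The excluded isoform genes Cox7a1 and Cox8b, made mainly in muscle and brown fat, are shown because they had the largest differences of any respiratory chain gene described here. RefSeq promoter windows of 300 bases (250 before the gene's start and 50 after it, GRCm38.p6) were found by gene ID for 72 of the 89 members. Printed are the 150 bases just upstream of the start, outside the transcript, in the direction of the gene. They lie at chr13:74350241-74350390 (minus strand, Sdha), chr9:50603850-50603999 (minus, Sdhd), chr13:30545317-30545466 (minus, Uqcrfs1), chr5:115348959-115349108 (minus, Cox6a1), chr11:115419920-115420069 (minus, Atp5h), chr7:30184021-30184170 (plus, Cox7a1) and chr7:140900447-140900596 (minus, Cox8b). Capitals mark every match, on either strand, to any of 6 motifs: GCGCANGCG (NRF1), CCGGAAG (ETS factors such as GABPA), AAGATGGCG (YY1), TNAAGGTCA (ERR receptors), TGACGTCA (CRE) and the TATA box. NRF1 and GABPA are known regulators of nuclear genes for mitochondrial proteins.
Sdha: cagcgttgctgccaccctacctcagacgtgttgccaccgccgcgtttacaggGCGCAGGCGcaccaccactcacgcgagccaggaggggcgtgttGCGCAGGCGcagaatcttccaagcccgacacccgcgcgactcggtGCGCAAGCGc
Sdhd: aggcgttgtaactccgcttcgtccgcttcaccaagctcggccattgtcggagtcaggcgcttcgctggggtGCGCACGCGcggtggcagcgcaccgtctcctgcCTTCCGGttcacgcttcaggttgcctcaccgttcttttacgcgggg
Uqcrfs1: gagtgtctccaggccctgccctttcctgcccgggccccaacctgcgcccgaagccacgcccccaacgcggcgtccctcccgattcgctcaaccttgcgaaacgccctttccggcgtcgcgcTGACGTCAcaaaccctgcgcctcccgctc
Cox6a1: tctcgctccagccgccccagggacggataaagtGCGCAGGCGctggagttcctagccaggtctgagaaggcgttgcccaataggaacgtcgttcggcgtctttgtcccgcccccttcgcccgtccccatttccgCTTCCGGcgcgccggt
Atp5h: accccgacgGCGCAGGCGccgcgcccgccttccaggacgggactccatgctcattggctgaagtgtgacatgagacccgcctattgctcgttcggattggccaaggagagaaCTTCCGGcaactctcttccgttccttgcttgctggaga
Cox7a1: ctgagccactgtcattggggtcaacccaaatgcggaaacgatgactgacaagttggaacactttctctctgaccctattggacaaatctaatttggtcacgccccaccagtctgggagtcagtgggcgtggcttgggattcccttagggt
Cox8b: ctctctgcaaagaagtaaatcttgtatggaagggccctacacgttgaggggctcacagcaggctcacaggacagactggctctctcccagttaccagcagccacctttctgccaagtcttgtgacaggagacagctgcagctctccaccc

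In these stretches Sdha holds 3 matches to the NRF1 motif, while Sdhd, Cox6a1 and Atp5h each hold an NRF1 and an ETS match. Uqcrfs1 holds a CRE match 29 bases before the start. The stretches of Cox7a1 and Cox8b hold no match to any of the 6 motifs, and they contain 4 and 1 CG dinucleotides. The 5 member stretches contain 13 to 19. Since those 5 were picked for their matches, this is no comparison of members with the isoforms: the same stretch holds no match in Sdhb, Ndufab1, Cox5b and Atp5b (8, 21, 17 and 11 CG dinucleotides) nor in Ndufs8 (3). Over the whole windows, 22 of the 72 members (30.6%) hold an NRF1 match, compared with 12.9% of the 11795 tested genes with a window. An ETS match was found in 18 members (25% against 16.7%), a YY1 match in 7 (9.72% against 2.87%), a CRE match in 5 (6.94% against 3.23%), an ERR match in 2 (2.78% against 1.03%) and a TATA box, searched as TATAAA, in 7 (9.72% against 9.98%). Over all 32851 windows of that length, the shares were 6.25% (NRF1), 8.86% (ETS), 1.4% (YY1), 1.79% (CRE), 1.28% (ERR) and 13.6% (TATA box). At least 1 NRF1, ETS or YY1 match was present in 39 members (54.2%, against 28.3% of tested genes). Members with an NRF1 match had a median log2 difference between groups of 0.15 and those without of 0.24. For the other motifs, members with a match had the higher median. It was 0.22 (ETS), 0.24 (YY1), 0.35 (CRE), 0.22 (ERR) and 0.22 (TATA box), against 0.18 without a match in each case. These splits were not tested. A match describes the letters in the window and is not evidence of binding.

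Most respiratory chain genes had somewhat higher values in Ovol2 BT skin, and none passed the test for a single gene, which with 2 arrays per group does not show that they were unchanged. The test was limma on log2(intensity + 16), with p-values adjusted over all 14953 genes tested and a gene called at an adjusted p under 0.05. Of the 89 members 87 were tested; Cox7b2, a testis isoform, and the assembly factor gene Ndufaf5 were among the dimmest 25% of genes and were left out. No member was called higher or lower, where 0.615% of all genes tested were called higher, 0.348% lower and 0.963% in either direction. At an unadjusted p under 0.05, 11 members were higher and 2 lower, against 5.11% of all genes higher, 5.24% lower and 10.4% in either direction. In all, 13 of 87 members passed that unadjusted level. The count of members higher at that level depended on the settings. It was 26 after quantile normalization (29.9%, where 5.26% of all genes were higher under that setting) and 21 without Ovol2 BT replicate 2 (24.1% against 5.76%). It was 5 without Ovol2 BT replicate 1 (5.75% against 5.29%) and 1 without Control replicate 2 (1.15% against 2.36%), so in these the members' share was near or below that of all genes.

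The shift was small and mostly in 1 direction. The log2 difference, Ovol2 BT minus Control, was above 0 in 72 of 87 members (82.8%), against 44.4% of all genes tested, and its median was 0.18 against -0.04 for all genes. Both Ovol2 BT arrays lay above both Control arrays in 42 members (48.3%), where 20.4% of all genes did so. Both lay below in 6 members, where 21.9% of all genes did so, and the groups overlapped in the other 39. Members were proposed with earlier results of these data known, so these shares describe the genes and carry no test. By complex, the median was highest in complex II (0.55), followed by III (0.42), I (0.28), IV (0.14) and V (0.07).

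**Figure D1:**
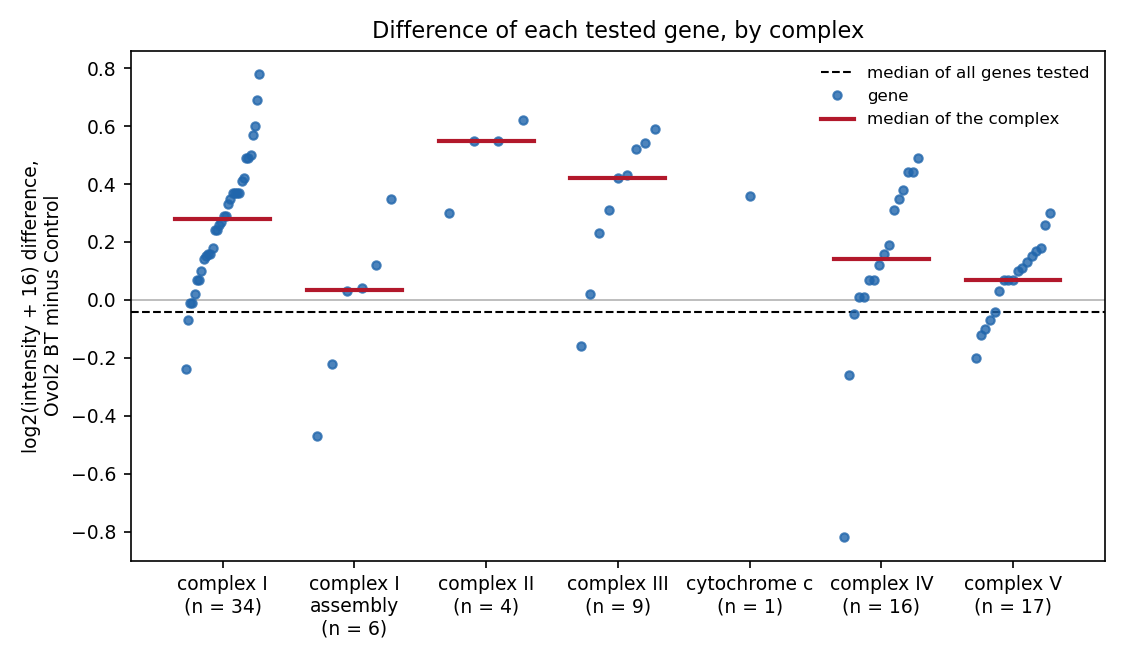
Each point is 1 tested gene, placed by complex, and its height is the log2(intensity + 16) difference, Ovol2 BT minus Control, from 2 arrays per group. Red bars are medians (0.28 in complex I, 0.55 in II, 0.42 in III, 0.14 in IV, 0.07 in V) and the dashed line is the median of all genes tested (-0.04); the lowest point is Ndufa4l2 at -0.82.

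Complex II had higher values in all 4 of its genes, and the groups overlapped in none. Of all genes tested, 20.4% had both Ovol2 BT arrays above both controls. Sdha, the flavoprotein that oxidises succinate, had intensities of 1095 and 1108 in the Control arrays and 1385 and 1901 in the Ovol2 BT arrays. Its log2 difference was 0.55 (SE 0.22, 95% interval 0.06 to 1.05, adjusted p = 0.433). Sdhb, the iron-sulfur subunit, stood at 871 and 831 in Control and at 1549 and 1121 in Ovol2 BT. That made a log2 difference of 0.62 (SE 0.22, interval 0.11 to 1.13, adjusted p = 0.385). Among the membrane anchors, Sdhd was at 1036 and 1034 against 1504 and 1552 (0.55, SE 0.19, adjusted p = 0.354), the tightest pair of groups in the complex. Sdhc, the other anchor, was at 2937 and 2832 against 3862 and 3282 (0.30, SE 0.17, adjusted p = 0.587). In each gene the lower Ovol2 BT array exceeded the higher Control array. Which Ovol2 BT array was higher varied: replicate 1 for Sdhb and Sdhc, replicate 2 for Sdha and Sdhd.

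**Figure D2:**
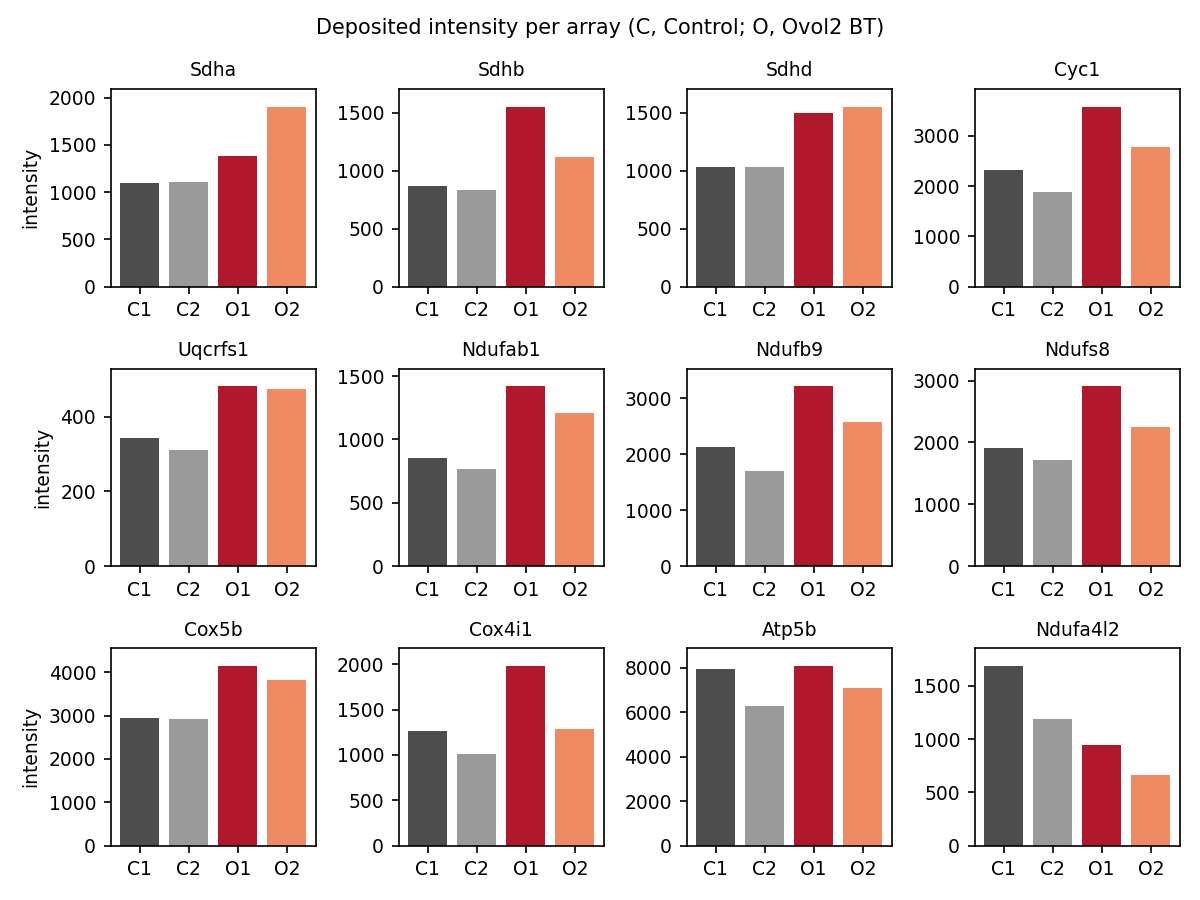
Bars give the deposited linear intensity (arbitrary units, axes from 0) of 12 members on each array, with Control replicates 1 and 2 in grey and Ovol2 BT replicates 1 and 2 in red and orange. For Sdhd the Control arrays stood at 1036 and 1034 and the Ovol2 BT arrays at 1504 and 1552; Atp5b overlapped between groups, and Ndufa4l2 was lower in both Ovol2 BT arrays (948 and 667) than in Control (1688 and 1189).

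In complex III, 8 of 9 genes had higher values, and the catalytic subunits had the clearest separation. Cyc1, which encodes cytochrome c1, was at 2326 and 1879 in Control and at 3578 and 2789 in Ovol2 BT. The log2 difference was 0.59 (SE 0.20, interval 0.13 to 1.05, adjusted p = 0.353). Uqcrfs1, the Rieske iron-sulfur protein, was at 343 and 312 against 481 and 475, a difference of 0.52 (SE 0.21, interval 0.06 to 0.99, adjusted p = 0.431). The small subunit gene Uqcrq was at 901 and 696 against 1482 and 911 (0.54, SE 0.27, adjusted p = 0.539). For Uqcrq the lower Ovol2 BT array was only just above the higher Control array, and its interval of -0.07 to 1.16 included 0. The core protein gene Uqcrc1 overlapped between groups, at 3365 and 2787 against 4365 and 3323 (0.31, SE 0.20, adjusted p = 0.613), while Uqcrc2 was at 0.23 (adjusted p = 0.692).

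The remaining small subunits of complex III differed among themselves. Uqcr10 (0.43, adjusted p = 0.555) and Uqcr11 (0.42, adjusted p = 0.611) had higher values in both Ovol2 BT arrays. Uqcrb was at 1684 and 1786 in Control and at 1282 and 2425 in Ovol2 BT, so that the Ovol2 BT arrays lay on either side of both controls and the difference was 0.02 (SE 0.28). Uqcrh, the hinge protein that helps hold cytochrome c1, was the only gene of the complex with a lower value, at 1764 and 1765 against 1423 and 1751 (-0.16, SE 0.20, adjusted p = 0.790). Cycs, the mobile cytochrome c, was at 1953 and 2389 in Control and 2518 and 3071 in Ovol2 BT. Its groups did not overlap, and the difference was 0.36 (SE 0.20, interval -0.08 to 0.81, adjusted p = 0.573).

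Complex I was represented by 34 genes, of which 30 had higher values. In 19 (55.9%) both Ovol2 BT arrays lay above both controls, against 20.4% of all genes. Some core subunits of complex I bind the flavin and iron-sulfur clusters that carry electrons. All 6 core subunit genes among the members had values above Control, with a median of 0.37. Ndufv1, which binds NADH and flavin, was at 1503 and 1345 in Control and at 2252 and 1774 in Ovol2 BT. The difference was 0.49 (SE 0.20, interval 0.03 to 0.95, adjusted p = 0.457). Ndufs8, an iron-sulfur subunit, was at 1904 and 1717 against 2904 and 2245 (0.49, SE 0.20, adjusted p = 0.442). Next were Ndufs7 (0.37, SE 0.17, adjusted p = 0.508) and Ndufs3 (0.37, SE 0.19, adjusted p = 0.555), both without overlap. Ndufs1, the largest core subunit, was at 360 and 553 in Control and at 398 and 754 in Ovol2 BT. Here replicate 2 was the higher array in each group and the groups overlapped (0.29, SE 0.33, adjusted p = 0.771). Ndufv2 overlapped too, at 2034 and 2288 against 1774 and 2697 (0.02, SE 0.23, adjusted p = 0.979).

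Among the 28 accessory subunits of complex I, which surround the core, 24 had higher values and the median was 0.25. Ndufab1, the acyl carrier protein that also serves mitochondrial fatty acid synthesis, was at 850 and 765 in Control and at 1418 and 1212 in Ovol2 BT. Its difference was 0.69 (SE 0.21, interval 0.23 to 1.16), with the smallest adjusted p of any member (0.262). Ndufb9, a membrane arm subunit, was at 2128 and 1695 against 3215 and 2581 (0.60, SE 0.20, interval 0.14 to 1.06, adjusted p = 0.348). Ndufs5 had the largest positive difference of any member, 0.78 (SE 0.24, adjusted p = 0.274), from a probe set below the array medians in 3 of 4 arrays, at 74.9 and 66.7 against 98.5 and 177. A second probe set, which the annotation assigns to both Ndufs5 and its copy Ndufs5-ps, was at 188 and 139 against 178 and 203, a difference of 0.22, so the size for Ndufs5 is uncertain.

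The other accessory subunits ranged downward from there. Ndufb8 (0.57, adjusted p = 0.514) and Ndufv3 (0.50, adjusted p = 0.535) were next, both with intervals that included 0. At the low end, Ndufs6 was at 1186 and 1115 in Control and 1022 and 924 in Ovol2 BT (-0.24, SE 0.20, adjusted p = 0.689), the only accessory gene with both Ovol2 BT arrays below both controls. Ndufa1 was at 213 and 199 against 183 and 208 (-0.07, SE 0.19, adjusted p = 0.906), with overlap.

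Assembly factors of complex I, which help build it and are not part of the finished enzyme, were mixed in direction. Of 6 tested, 4 had higher and 2 lower values, with a median of 0.03. Ndufaf3 was at 620 and 547 in Control and at 820 and 681 in Ovol2 BT (0.35, SE 0.22, adjusted p = 0.605). Ndufaf2, a relative of the subunit Ndufa12 that occupies its place during assembly, was at 212 and 187 against 128 and 152. The difference was -0.47 (SE 0.19, interval -0.90 to -0.04, adjusted p = 0.447), while Ndufa12 itself was at 0.24 (adjusted p = 0.695). Ndufaf6 (0.12, SE 0.18), Ndufaf1 (0.04, SE 0.24) and Ndufaf4 (-0.22, SE 0.21) overlapped between groups. Intensities of the 6 tested genes ran from 79.7 to 820 on any array, with Ndufaf3 the highest. The untested Ndufaf5 was at 69.1 and 84.9 against 66.3 and 50.1.

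In complex IV, cytochrome c oxidase, 13 of 16 tested genes had higher values. In 7 (43.8%) both Ovol2 BT arrays lay above both controls, against 20.4% of all genes. In 2 both lay below, where 21.9% of all genes did so. Cox5b, which caps the complex on the matrix side, was at 2956 and 2918 in Control and 4145 and 3822 in Ovol2 BT. Its difference was 0.44 (SE 0.16, interval 0.07 to 0.81, adjusted p = 0.411). Cox4i1, the widely expressed form of the largest nuclear subunit, was at 1261 and 1013 against 1981 and 1286. Replicate 2 of Ovol2 BT was thus barely above Control replicate 1, and the difference of 0.49 (SE 0.25, adjusted p = 0.550) was 0.18 without Ovol2 BT replicate 1 and 0.80 without replicate 2. Cox6a1 was at 2668 and 2072 against 3807 and 2687 (0.44, SE 0.22, adjusted p = 0.549), with the same narrow gap. Cox5a was at 978 and 822 against 1254 and 1088 (0.38, SE 0.21, adjusted p = 0.582).

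Other widely expressed subunits of complex IV had differences near 0. Cox7a2 was at 1245 and 1196 in Control and 1266 and 1193 in Ovol2 BT (0.01, SE 0.19, interval -0.43 to 0.45, adjusted p = 0.988). Cox6c was at 7415 and 6617 against 7230 and 6292 (-0.05, SE 0.15, adjusted p = 0.912). Cox8a overlapped, at 4912 and 4577 against 5976 and 4669 (0.16, SE 0.17, adjusted p = 0.765). Ndufa4, named for complex I but established as a subunit of complex IV and counted here, was at 873 and 966 against 756 and 771. Both Ovol2 BT arrays were lower, with a difference of -0.26 (SE 0.20, adjusted p = 0.666). The supercomplex factor gene Cox7a2l was at 0.12 (SE 0.24, adjusted p = 0.878).

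Isoforms of complex IV that replace the common form in some tissues or states had values in both directions. Ndufa4l2, a paralog of Ndufa4 that is induced by low oxygen, had the largest decrease of value among all members. It was at 1688 and 1189 in Control and at 948 and 667 in Ovol2 BT, a difference of -0.82 (SE 0.26, interval -1.40 to -0.24, 1.77-fold, adjusted p = 0.293). Both Ovol2 BT arrays were below both controls, and the Control arrays themselves were far apart. Cox4i2, the alternative to Cox4i1, was at 540 and 576 against 800 and 636 (0.35, SE 0.22, adjusted p = 0.613). Cox6a2, the heart and muscle form of Cox6a1, was at 1054 and 1030 against 1181 and 1197 (0.19, SE 0.19, adjusted p = 0.747). The testis isoforms Cox6b2 (0.07, SE 0.30) and Cox8c (0.01, SE 0.17) overlapped between groups, and the untested Cox7b2 was near the array's lower range at 22.8 to 29.6.

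The isoform genes that the rule leaves out were called. Cox7a1, the muscle and brown fat form of Cox7a2, was at 235 and 122 in Control and at 2158 and 1219 in Ovol2 BT. It rose by 3.14 on the log2 scale (SE 0.35, adjusted p = 0.00516). Cox8b, the corresponding form of Cox8a, was at 443 and 314 against 1882 and 1273 and rose by 2.01 (SE 0.27, adjusted p = 0.0105). The common forms Cox7a2 and Cox8a were at 0.01 and 0.16 in the same arrays. Cox6a2, which muscle also makes, was at 0.19.

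Complex V, the ATP synthase, had the smallest median of the 5 complexes, 0.07, with 12 of 17 genes higher and 4 with both Ovol2 BT arrays above both controls (23.5%, against 20.4% of all genes). The 5 genes of its catalytic head had small differences (median 0.10), and each interval spanned negative and positive values. Atp5b, the catalytic beta subunit, was at 7951 and 6294 in Control and 8084 and 7096 in Ovol2 BT (0.10, SE 0.16, interval -0.27 to 0.47, adjusted p = 0.847). Atp5a1, the alpha subunit, was at 4483 and 4014 against 4548 and 4377 (0.07, SE 0.16, interval -0.28 to 0.43, adjusted p = 0.883). For these genes each group held an array within the range of the other. The rotor shaft gene Atp5c1 was at 2494 and 2454 against 2776 and 2849 (0.18, SE 0.17, adjusted p = 0.719), without overlap.

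In the membrane part and stalk of complex V, Atp5j2 had the largest difference, at 2395 and 2209 in Control and 3299 and 2434 in Ovol2 BT (0.30, SE 0.20, adjusted p = 0.630). Atp5md, a small subunit involved in dimers of the enzyme, was at 0.26 (SE 0.19, adjusted p = 0.655). The 3 genes that encode the same c-ring protein did not separate clearly: Atp5g1 was at -0.07 (SE 0.17), Atp5g2 at 0.03 (SE 0.18) and Atp5g3 at -0.12 (SE 0.17). Atp5g3 was at 4463 and 3787 against 3785 and 3780, just below the lower Control array. Atp5j, the coupling factor 6 gene, had the lowest difference of the complex, at 2133 and 2259 against 1586 and 2282 (-0.20, SE 0.22, adjusted p = 0.756).

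Because a shift of a whole array cancels when complexes are compared within it, mean log2 levels of the complexes were also set against complex V in each array. The mean of complex II minus that of complex V was -0.79 and -0.78 in the Control arrays and -0.37 and -0.31 in the Ovol2 BT arrays, a change of 0.44. Complex III minus complex V was -0.82 and -0.89 in Control and -0.60 and -0.60 in Ovol2 BT. For complex I the values were -1.21 and -1.26 against -1.03 and -1.02. In these 3 pairs both Ovol2 BT arrays lay above both controls. Complex IV minus complex V overlapped, at -0.82 and -0.89 against -0.72 and -0.89. The levels mix probe sets of different brightness, so only the change between groups can be read, and it was not tested.

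Replicate arrays differed by about as much as the groups did. In 48 of 87 members the gap between the Ovol2 BT arrays was larger than the difference between groups. Replicate 1 was the higher array in both groups for 49 members, replicate 2 in both groups for 18, and 20 had opposite orders. The median of replicate 1 minus replicate 2, taken with its sign, was 0.09 in Control and 0.22 in Ovol2 BT. Gaps in opposite directions cancel in it, so it is not the size of a typical gap. Against each gene's Control mean, the members' median was 0.33 in Ovol2 BT replicate 1 and 0.18 in replicate 2. The median of complex II was 0.48 in each of these arrays, although single genes differed in opposite directions. Sdha was at 1385 and 1901 in them, and Sdhb at 1549 and 1121. The median of complex IV stood at 0.37 and 0.07 and that of complex V at 0.19 and 0.00.

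**Figure D3:**
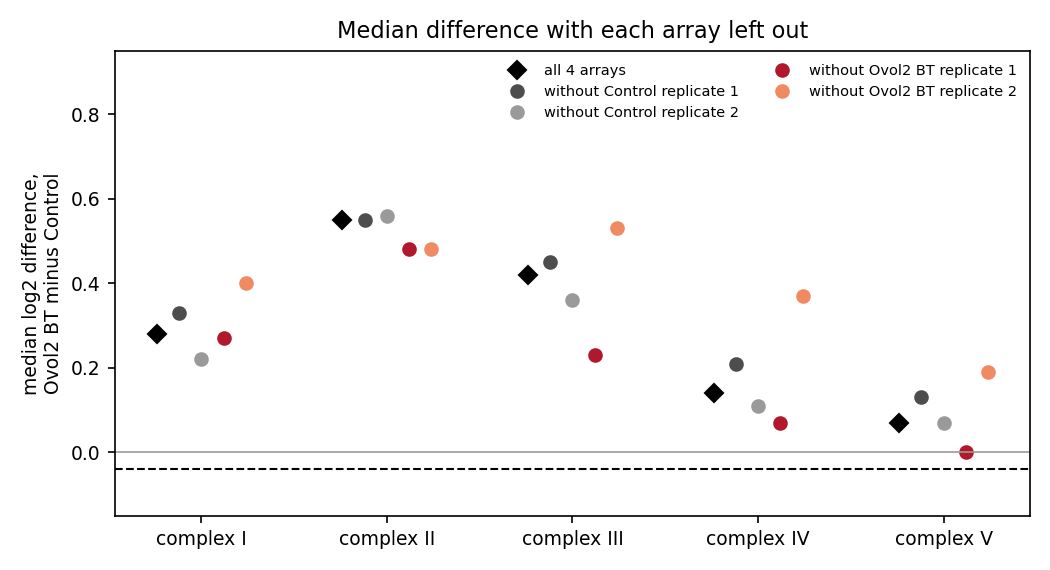
Black diamonds give the median log2 difference (Ovol2 BT minus Control) of each complex over all 4 arrays, and circles the same with 1 array left out; the dashed line is the median of all genes tested (-0.04). Complex II stays between 0.48 and 0.56, while complex IV ranges from 0.07 to 0.37 and complex V from -0.0001 to 0.19.

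With 1 array left out, its group has a single array, whose spread is taken to be that of the other group. The medians then ran from 0.22 to 0.40 in complex I, from 0.48 to 0.56 in complex II and from 0.23 to 0.53 in complex III. In complex IV they ran from 0.07 to 0.37, and in complex V from -0.0001 to 0.19. The lowest values of complexes III, IV and V came without Ovol2 BT replicate 1, and the highest without Ovol2 BT replicate 2. The difference of Ndufs5 was 0.85 without Control replicate 1 and 0.71 without Control replicate 2. It was 1.16 without Ovol2 BT replicate 1 and 0.40 without Ovol2 BT replicate 2. With every array kept, the probe set shared with Ndufs5-ps gave 0.22, so the size for Ndufs5 is uncertain. Among genes named here, the sizes of Sdha (0.33 without Ovol2 BT replicate 2, 0.78 without replicate 1) and Sdhb (0.39 without replicate 1, 0.85 without replicate 2) moved most within complex II, and Sdhd stayed between 0.53 and 0.58. In Ndufs1 and Uqcrb the sign changed with the array left out, from -0.16 to 0.73 and from -0.43 to 0.48.

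Several members have more than 1 probe set of their own, and these mostly gave similar values. Of the 89 members 18 had several. The 6 probe sets of Atp5l, for example, spanned -0.028 to 0.117, and those of Cox5b gave 0.437 and 0.441. Ndufab1 was at 0.691 and 0.741, Ndufc1 at 0.335 and 0.462. Cox7c and Ndufb4 have only probe sets that the annotation assigns to several genes, and they were not counted as members. Their probe sets gave 0.11 to 0.16 and 0.26 to 0.27.

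Other genes of mitochondrial respiration were read from lists by function. Of 36 assembly factors outside the rule 34 were tested and none was called; 23 had higher values and the median was 0.09. Atpaf2, an assembly factor of the complex V head, was at 822 and 655 in Control and 1230 and 1015 in Ovol2 BT (0.60, SE 0.22, adjusted p = 0.408). Higd1a, a hypoxia-inducible factor of complex IV, was at 399 and 386 against 218 and 283 (-0.63, SE 0.22, adjusted p = 0.357). Subunits encoded in mitochondrial DNA were represented by 2 genes. COX2, the copper-binding subunit of complex IV, was at 4698 and 4791 against 5032 and 5553 (0.16, SE 0.15, adjusted p = 0.735). ND3, of complex I, overlapped at 3810 and 3341 against 3578 and 3955 (0.08, SE 0.17, adjusted p = 0.886).

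Genes that make ubiquinone, the carrier between complexes I or II and III, had higher values in 10 of 11 cases, with a median of 0.35 and 1 called. Coq8a, the atypical kinase of the synthesis complex, was at 435 and 331 in Control and at 2625 and 1261 in Ovol2 BT and rose by 2.22 (SE 0.33, adjusted p = 0.0169). Coq9 (0.71, adjusted p = 0.353) and Coq5 (0.66, adjusted p = 0.370) did not pass. All 17 TCA cycle genes had higher values and none was called (median 0.33). The smallest p values were those of Pdhb, a pyruvate dehydrogenase subunit (0.87, SE 0.22, adjusted p = 0.169), and of Idh3a (0.83, SE 0.24, adjusted p = 0.235). Of 17 fatty acid oxidation genes 15 had higher values (median 0.71) and 1 was called, the isomerase gene Eci1, which rose by 1.42 (SE 0.25, adjusted p = 0.0349).

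The machinery that makes and imports mitochondrial proteins had values near the median of all genes. Of 77 mitochondrial ribosome genes 35 had higher and 42 lower values, with a median of -0.03 and none called by limma; 0 were higher and 2 lower at an unadjusted p under 0.05. Of 24 protein import genes 11 had higher values, with a median of -0.02. Among 64 cytosolic ribosome genes 12 had higher values, with a median of -0.11. The median of all genes was -0.04.

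Among 23 tested regulators of mitochondrial gene expression, 8 had higher values (median -0.09) and 1 was called. Ppara, the nuclear receptor that drives fatty acid oxidation genes, was at 130 and 138 in Control and at 570 and 429 in Ovol2 BT and rose by 1.77 (SE 0.22, adjusted p = 0.00760). Ppargc1a, the coactivator PGC-1alpha, was at 82.2 and 75.6 against 188 and 142 (0.92, SE 0.18, adjusted p = 0.0661), and Ppargc1b was at 0.78 (SE 0.21, adjusted p = 0.212). Of the motifs above, factors were read only for NRF1, ETS, YY1 and ERR, with Gabpa the only ETS factor. None of those tested was called. Nrf1 was at -0.30 (SE 0.24, adjusted p = 0.677), Gabpa at -0.05 (SE 0.26, adjusted p = 0.958) and Yy1 at -0.09 (SE 0.21, adjusted p = 0.900). Of the ERR receptors, Esrra was at 0.23 (SE 0.22, adjusted p = 0.728). Esrrg was at 66.1 and 62 against 80.3 and 91.3 (0.35, SE 0.14, adjusted p = 0.453), and Esrrb was not tested. Tfam, which packages and transcribes mitochondrial DNA, was at 83.4 and 98.8 against 53.2 and 85.8 (-0.35, SE 0.20, adjusted p = 0.587).

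Markers of cell types rich in mitochondria moved in the same arrays. Whole skin was measured, so a change in the share of a cell type and a change of RNA per cell cannot be told apart. Of 13 tested brown adipocyte genes 12 had higher values and 7 were called (median 1.33), a list that holds Cox7a1 and Cox8b. Its summed intensity was 2357 and 1846 in the Control arrays and 9428 and 6976 in the Ovol2 BT arrays. Ucp1, the uncoupling protein that lets brown fat make heat from the proton gradient, was at 37.9 and 44.2 against 198 and 356 and rose by 2.31 (SE 0.25, adjusted p = 0.00481). Ucp1 and Cidea, also called in this list, were dim in Control (mean log2 levels of 5.83 and 6.13). They passed the filter on mean level only through their Ovol2 BT values. Prdm16 (0.28, adjusted p = 0.616), Dio2 (0.20, adjusted p = 0.632) and Zic1 (-0.05, adjusted p = 0.943) did not pass. All 20 genes of the adipocyte list had higher values and 13 were called, with sums of 17166 and 12779 against 46831 and 46737. Of those called, Lep and Pck1 (mean log2 levels of 5.87 and 5.97 in Control) also passed the filter only through their Ovol2 BT values.

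Skeletal muscle genes, of which all 26 were tested, had higher values in 24 cases with none called (median 0.33). Their summed intensity was 41193 and 42355 in Control and 46142 and 54116 in Ovol2 BT. At the other end, 9 of 10 basal keratinocyte genes had lower values, with a median of -0.31. The 3 called were the keratin genes Krt15 (-2.29), Krt14 (-1.24) and Krt5 (-1.10). Mean log2 levels of the list were 10.63 and 10.60 against 10.07 and 9.93. All 9 suprabasal keratinocyte genes (median -0.28, 1 called) and all 7 melanocyte genes (median -0.41, 1 called) had lower values too. The called melanocyte gene, Tyr, had mean log2 levels of 7.33 in Control and 6.18 in Ovol2 BT. It passed the filter on mean level only through its Control values. All 10 endothelial genes had higher values, with a median of 0.28 and none called. Of 11 macrophage and mast cell genes 7 had higher values (median 0.05, none called). Fibroblast genes, defining for dermis, had mean levels of 11.85, 11.95, 11.83 and 11.93 in the same order. The part of these cell type shifts in the values of the respiratory chain genes was not tested. Mean log2 levels of the adipocyte list were 9.21 and 8.56 in Control and 10.83 and 10.82 in Ovol2 BT. Those of the respiratory chain genes were 10.16 and 10.10 against 10.39 and 10.28. The adipocyte list thus differed by more both between the Control arrays and between groups, and a link between the 2 was not tested.

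**Figure D4:**
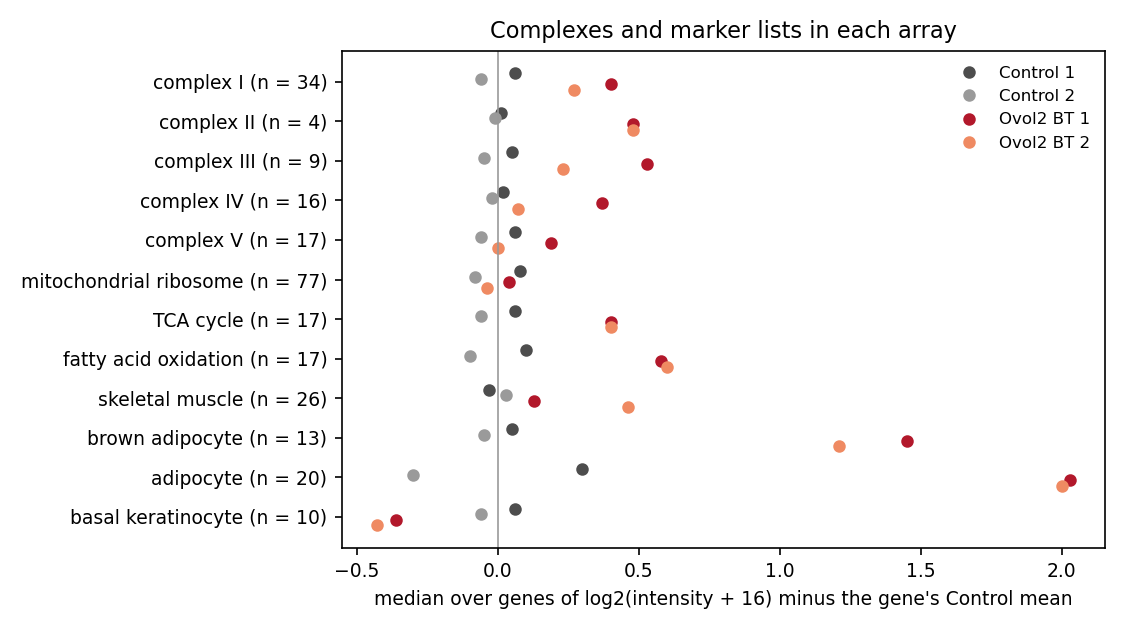
Each point is 1 array, and its position is the median over a group's genes of log2(intensity + 16) minus the gene's Control mean, with Control in greys and Ovol2 BT in red and orange. Complex II lies at 0.48 in both Ovol2 BT arrays, complex V at 0.19 and 0.00, the adipocyte list at 2.03 and 2.00, the brown adipocyte list at 1.45 and 1.21 and the skeletal muscle list at 0.13 and 0.46.

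The arrays were on a similar scale, with median intensities of 123 to 132, and 9.44% to 10.1% of values below 16. Ovol2 itself was at 360 and 161 in Control and at 4367 and 3893 in Ovol2 BT (log2 difference 4.0, SE 0.33, adjusted p = 0.00311). With 2 arrays per group, precision is limited throughout. A member with an SE of 0.20, such as Ndufs8, had a 95% interval of 0.04 to 0.95 around its difference of 0.49.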

How the data were processed

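The authors deposited an intensity on a linear scale for each probe set. The submitters' processing notes name the tools Affymetrix Expression Console 1.1.1 and PLIER 2.0. How background and normalization were handled, and which genome build, is not given in the sources used here. Of 35557 probe sets, 21789 name 1 gene by the platform annotation. Only these were used. All 89 members matched the reference table by Entrez ID.

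Values were taken as log2(intensity + 16), and the 25% of genes with the lowest mean were left out. Each gene was fitted on group with limma 3.58.1 (lmFit, eBayes with a variance trend, R 4.3.3), two-sided, with Benjamini-Hochberg adjustment over 14953 genes. Intervals use the moderated variance (2 residual and 6.94 prior degrees of freedom). The fit was tested on simulated data. Summaries and figures used Python 3.11.15, pandas 2.3.3 and matplotlib 3.10.9. Nothing in the labels says that Control and Ovol2 BT arrays of the same number are paired; p-values measure the spread between 2 pools of 2 mice per group.

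The members, lists and tests were chosen with earlier results of these data known. The rule for naming members took, per complex, up to 3 highest and 2 lowest differences and a set of catalytic subunits and isoforms (43 members). From each list it took called genes or the 2 with the smallest p, plus Ovol2, Cox7a1, Cox8b, Ucp1, Ppargc1a, Esrra and Tfam. Other genes named, the promoters shown among them, were chosen after their values were seen. Ndufa4 and Ndufa4l2 were counted under complex IV. Alternatives were another pseudocount, filter, normalization, variance trend, probe set rule or threshold, a replicate block and each array left out.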

Additional observations from a re-analysis of the deposited data

How the results depend on the processing

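No member was called with a pseudocount of 1 or 64, with the filter dropped or raised to 50%, after quantile normalization or median centring, with the variance trend removed or made robust, with probe sets averaged, or at a threshold of 0.10. With the replicate number as a replicate block, 3 of 87 members were called higher (Cyc1, Ndufab1 and Ndufb9) and 1 lower (Ndufa4l2). Calls over all 14953 genes went from 144 to 671 (323 higher, 348 lower). For both directions together, the members' share was thus near that of all genes. At an unadjusted p under 0.05 the block gave 32 members higher (36.8%, against 8.34% of all genes), compared with 11 without it. The labels do not pair the arrays, and over genes the correlation of deviations between arrays sharing a number was 0.41. With 1 array left out, 0 to 1 members were called higher and 0 lower, among 206 to 366 genes called in all.

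Quantile normalization moved the median of complex II to 0.60 and of complex V to 0.14. With 1 array left out, the median of all members ranged from 0.18 to 0.33, of complex I from 0.22 to 0.40, of II from 0.48 to 0.56, of III from 0.23 to 0.53, of IV from 0.07 to 0.37 and of V from -0.0001 to 0.19. The medians of complexes I to IV stayed above 0 under every alternative run, and that of V under 13 of 14. Of 2 groupings added after seeing the data, counting Ndufa4 and Ndufa4l2 by their symbol gave 0.26 in complex I and 0.17 in complex IV, and leaving out tissue isoforms gave 0.16 in complex IV. Signal over background could not be measured from the deposited values.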
